A study of Mus musculus with 6 samples.

Results

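Blood endothelial cells line the inner face of arteries, capillaries and veins. They were compared here between 18-month-old and 6-week-old C57BL/6 mice, in single-cell RNA libraries made from dermal collecting lymphatic vessels. The dissection freed the lymphatic vessels between the inguinal and axillary nodes of anaesthetised mice, after Evans Blue was injected to make them visible. Enzymes then freed the cells, and red blood cells were lysed. A barcode counted as blood endothelium when it held at least 500 detected genes, at most 10% mitochondrial UMIs (unique molecular identifiers, 1 per captured transcript), at least 2 UMIs of Pecam1 and Cdh5 together, no UMI of the lymphatic genes Prox1 and Mmrn1, none of the leukocyte gene Ptprc and at most 4 UMIs of the fibroblast genes Col1a2 and Dcn. The rule took 1110 of the 24488 kept barcodes of the series, and 931 of the 17128 kept barcodes of the 4 libraries compared.

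The 18-month group consisted of 1 library labelled male, with 74 blood endothelial barcodes, and 1 labelled female, with 41. The 6-week group consisted of 1 male library with 665 and 1 female library with 151. The labels also name a pair of 12-month libraries, with 88 and 91 blood endothelial barcodes, which are set beside the others and were not fitted. All mice were C57BL/6, and the labels name no further allele. The 18-month mice were supplied by the National Institute on Aging, so age and source cannot be told apart. The number of mice per library is not stated, and p-values therefore measure only the spread between these libraries. The sex labels of the 12-month pair went against Xist and 4 Y-linked genes, so these libraries are called 12-month library 1 (labelled male, with Xist) and library 2 (labelled female, with Y-linked transcripts).

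Vessel endothelium keeps its identity through receptors for vascular growth factors and through tight and adherens junctions. It sits on a basement membrane of type IV collagen and laminin that it makes together with pericytes. Arteries, capillaries and veins differ in the genes their lining uses, and capillaries of skin and fat take up fatty acids through CD36, FABP4 and the lipase anchor GPIHBP1. Endothelial cells also respond to flow, to interferon and to inflammatory signals, and immediate early genes, which are switched on within minutes of a stimulus, are known to respond to tissue digestion as well.

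The label was checked with 9 endothelial genes that the rule did not use. Kdr, the main receptor for vascular endothelial growth factor, stood at 729 and 631 counts per 1000000 UMIs (CPM) in the 18-month male and female sums, against 571 and 969 CPM in the 6-week male and female sums. Flt1, a second receptor of that family, stood at 1436 and 1043 CPM at 18 months, against 1421 and 1896 CPM at 6 weeks. Tek, the angiopoietin receptor, stood at 189 and 124 CPM at 18 months, against 139 and 162 CPM at 6 weeks. In Kdr, Flt1 and Tek the levels of the ages overlapped, as they did in Emcn, Egfl7 and Esam. In Tie1, Cldn5 and Eng both 18-month libraries lay below both 6-week ones, as 20.8% of all genes tested did. Tie1 was at 124 and 169 CPM at 18 months, against 185 and 173 CPM at 6 weeks. Cldn5 was at 912 and 354 CPM, against 1536 and 1149 CPM, and Eng at 378 and 317 CPM, against 397 and 428 CPM. The barcodes had a median of 12 and 20 UMIs of the 9 genes at 18 months, against 17 and 19 at 6 weeks.

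A small number of barcodes met the rule and went against the label. In the 18-month female library 1 barcode of 62250 UMIs made up 25.7% of the blood endothelial sum. It held 4 Pecam1 UMIs, none of Cdh5, none of the 9 further endothelial genes and 390 UMIs of 7 epithelial genes, with 168 of the keratin Krt18, 112 of Krt8 and 233 of the milk protein gene Csn2. In all, 3 barcodes with at least 5 epithelial UMIs gave 34.9% of that library's sum, and the other 2 also held endothelial transcripts. The 18-month male and both 6-week libraries had none, and 12-month library 1 had 4. Counts of calls, the genes called and the counts over most gene lists are therefore given with the rule as written and after a lineage check. Other genes and list counts are given with the rule as written unless the check is named. None of these genes passed after the check in the comparison of ages. The check asked for at least 1 UMI of the 9 endothelial genes and fewer than 5 UMIs of the epithelial genes. It left 74 and 38 barcodes at 18 months, with 185268 and 158006 UMIs, against 662 and 149 barcodes at 6 weeks, with 2264106 and 553565 UMIs. After the check the ages overlapped for Tie1 and Eng, and not for Cldn5. The check was chosen after these barcodes had been seen.

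**Figure D1:**
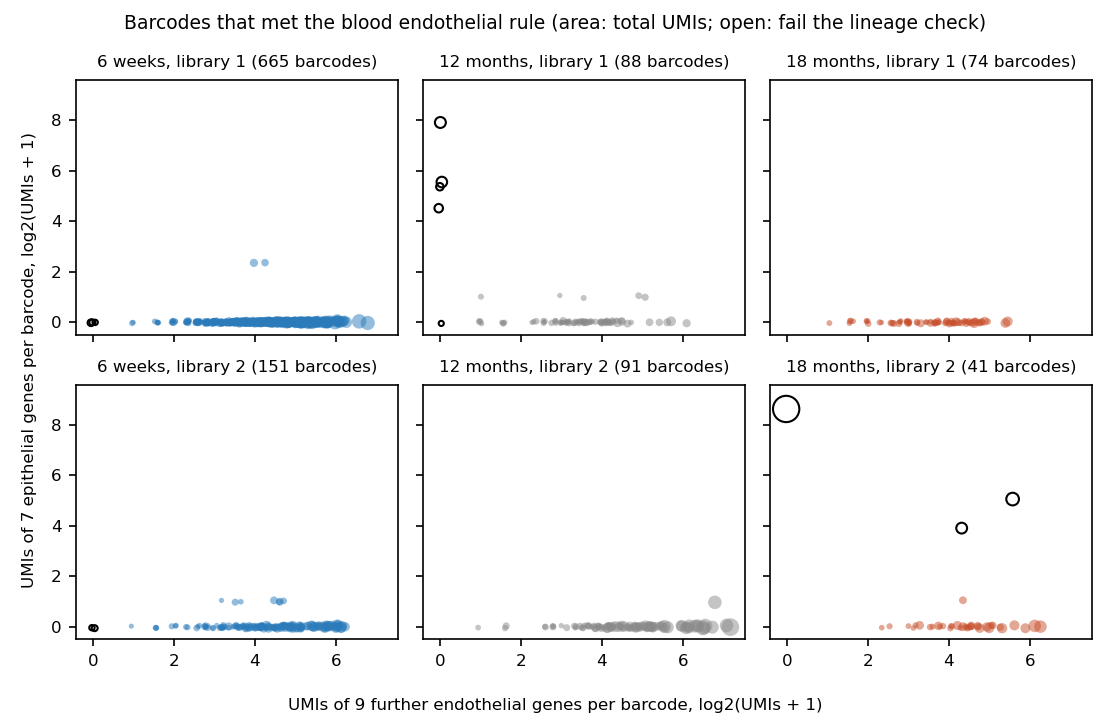
Each point is a barcode that met the blood endothelial rule, with its UMIs of 9 further endothelial genes on the horizontal axis and of 7 epithelial genes on the vertical axis, both as log2(UMIs + 1), and its area scaled to its total UMIs. Open circles fail the lineage check, and the large one at top left of the panel for 18-month library 2 is the barcode of 62250 UMIs.

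UMIs were summed per library, and the 2 sums of each age were compared with edgeR's quasi-likelihood F test over 5440 genes. With the rule as written 2 genes rose at a Benjamini-Hochberg adjusted p under 0.05, which is 0.0368% of the genes tested. None fell (0.00%). At an unadjusted p under 0.05, 235 genes were higher (4.32%) and 250 lower (4.60%), and DESeq2 called 7 genes at an adjusted p under 0.05. The genes that rose were Cytl1, which encodes a small secreted cytokine-like protein, and Gm26847, a predicted gene whose function is not known here. After the lineage check 4 of 5158 genes rose (0.0775%) and 2 fell (0.0388%), while 225 were higher (4.36%) and 263 lower (5.10%) at an unadjusted p under 0.05. The 4 were Cytl1, Gm26847, the matrix Gla protein gene Mgp and the clusterin gene Clu, and the 2 were Tmem252 and Maff.

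**Figure D2:**
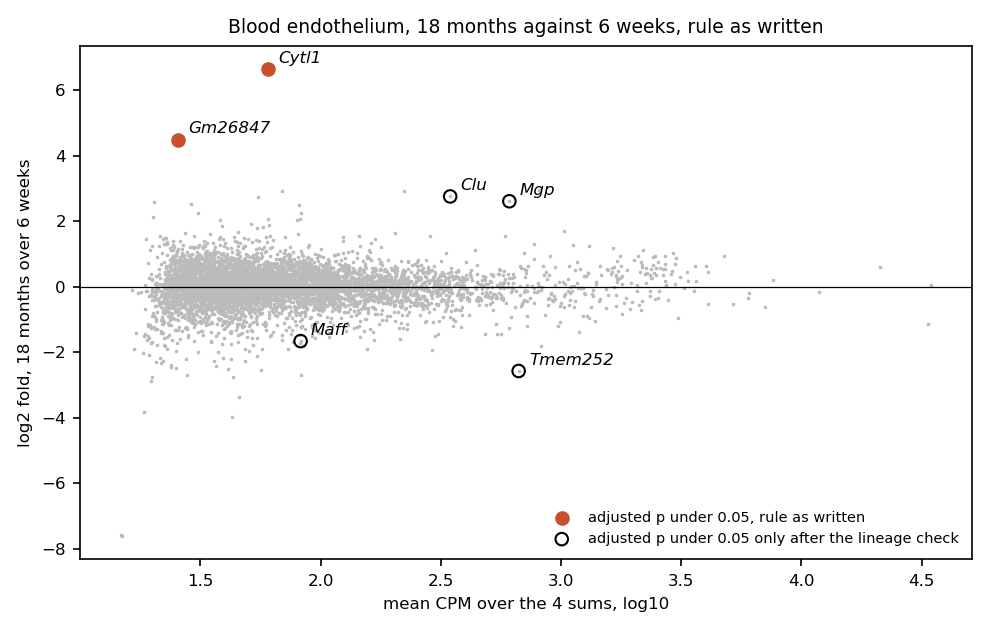
Each point is 1 of the 5440 genes tested, with its mean level over the 4 sums on the horizontal axis (log10 CPM) and its log2 fold of 18 months over 6 weeks, rule as written, on the vertical axis. Filled circles mark Cytl1 and Gm26847, and open circles mark Mgp, Clu, Tmem252 and Maff, which passed after the lineage check and not in this fit.

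Cytl1 (GRCm38 chr5:37735519-37739820, plus strand) was measured at 113 and 128 CPM in the 18-month male and female sums, against 1.32 and 0 CPM in the 6-week male and female sums. It lay at 24.3 and 54.6 CPM in 12-month libraries 1 and 2. Both 18-month libraries were above every other library, and both 12-month libraries were above both 6-week ones. These levels rested on 21 and 31 UMIs at 18 months, against 3 and 0 UMIs at 6 weeks. Pooled over libraries, the level at 18 months was 114 times that at 6 weeks, with an exact 95% counting interval of 37.1 to 573. The fitted log2 fold was 6.66 ± 0.56 (SE, edgeR adjusted p = 0.000251), and 6.91 ± 0.60 after the lineage check (edgeR adjusted p = 1.73e-06). Its size depends on the prior count, since 1 library was at 0.

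The Cytl1 UMIs came from few cells. They lay in 4 of 74 and 3 of 41 barcodes at 18 months, with at most 14 and 16 UMIs in a barcode, against 2 of 665 and 0 of 151 barcodes at 6 weeks. Barcodes without expression of a gene can pick up free RNA, so fibroblasts of the same libraries were counted as well. None of 1586 and 427 fibroblasts held a Cytl1 UMI at 18 months, and none of 4523 and 1797 at 6 weeks. Fibroblast barcodes were deeper, with medians of 4778.5 and 5253 UMIs at 18 months, against 3231 and 3577 at 6 weeks. The part of free RNA in the Cytl1 values was not tested. A larger share of cells with a transcript and more transcript per cell cannot be told apart in such a sum. Leaving out the barcode with the most Cytl1 UMIs in each library left 38.1 and 63.6 CPM at 18 months, against 0.44 and 0 CPM at 6 weeks.

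Mgp (chr6:136872435-136875823, minus strand) encodes a secreted inhibitor of calcification and of bone morphogenetic proteins. It was at 664 and 1422 CPM at 18 months, against 146 and 209 CPM at 6 weeks, and at 209 and 109 CPM in 12-month libraries 1 and 2. Both 18-month libraries were thus above the other 4, and of the 12-month pair library 1 was level with the higher 6-week library and library 2 below both. The log2 fold of 2.61 ± 0.41 did not pass with the rule as written (edgeR adjusted p = 0.0535), and did with labelled sex as a second term (edgeR adjusted p = 0.00926). With the lineage check the 18-month female level was 2177 CPM and the log2 fold of 2.94 ± 0.44 passed (edgeR adjusted p = 0.00446). Leaving out the barcode with the most Mgp UMIs in each library left 446 and 619 CPM at 18 months, against 130 and 157 CPM at 6 weeks. Without the 18-month female library the checked fold was 1.93, against 3.46 without the 18-month male library. Fibroblasts also use Mgp. Of 6 fibroblast markers tested Mgp was the 1 above both 6-week libraries, where 18.5% of all genes were. Another 4 lay below both, where 20.8% of all genes did. The rule itself limits the fibroblast genes Col1a2 and Dcn, and the part of fibroblast RNA in the Mgp values was not tested.

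Mgp and Cytl1 shared their cells at 18 months. The 7 barcodes with a Cytl1 UMI held 60.2% of the Mgp UMIs of the 18-month male sum and 96.5% of those of the 18-month female sum, against 5.72% and 0% in the 6-week male and female sums. In the 18-month female library 1 such barcode held 199 of 345 Mgp UMIs. Among all other barcodes Mgp stood at 276 and 53.5 CPM at 18 months, against 138 and 209 CPM at 6 weeks, so that the ages overlapped there. This split was made after the values had been seen and uses Cytl1, a gene of the same comparison, so it is a description without a test. In 12-month library 2 the 5 barcodes with Cytl1 held 75.8% of the Mgp UMIs, while the 2 in library 1 held none.

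**Figure D3:**
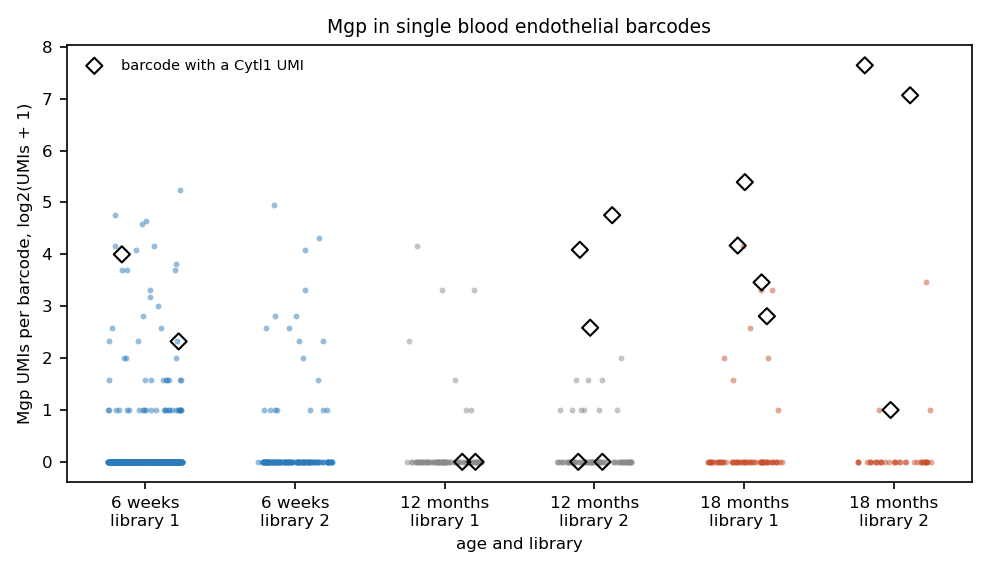
Each point is a blood endothelial barcode, placed by library (horizontal axis, ages in order) and by its Mgp UMIs as log2(UMIs + 1) (vertical axis); diamonds mark barcodes with a Cytl1 UMI. The highest Mgp values of both 18-month libraries, up to 199 UMIs, lie in such barcodes, whereas most of the high values at 6 weeks do not.

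Clu (chr14:65968483-65981547, plus strand) encodes clusterin, a secreted chaperone that is used by arterial endothelium among other cells. It was at 281 and 923 CPM at 18 months, against 98.3 and 82.7 CPM at 6 weeks, with 218 and 363 CPM in 12-month libraries 1 and 2. All older libraries were above both 6-week ones. In the 18-month female library 144 of 224 UMIs lay in 1 barcode, and the level after the lineage check was 392 CPM. The log2 fold of 2.76 ± 0.48 did not pass with the rule as written (edgeR adjusted p = 0.0889, and 0.0286 with labelled sex as a second term), and that of 1.81 ± 0.32 after the check did (edgeR adjusted p = 0.0145). The checked call was lost without the 6-week male library (edgeR adjusted p = 0.0630) and without the 6-week female one (edgeR adjusted p = 0.129). With the rule as written, barcodes with Cytl1 held 34.6% and 11.2% of the Clu UMIs at 18 months, against 3.14% and 0% at 6 weeks. Both 18-month shares were below those of Mgp. The total behind the 11.2% includes the barcode of 144 UMIs, which the lineage check left out, so the share is larger after the check. Outside the barcodes with Cytl1 and after the lineage check Clu was at 191 and 265 CPM at 18 months, against 95.6 and 83.1 CPM at 6 weeks. Fibroblasts of the 18-month female library also held much Clu, at 280 CPM, against 12.4 CPM in those of the 18-month male library and 9.11 and 11.3 CPM in those of the 6-week ones. The part of free RNA in the endothelial value was not tested gene by gene.

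Gm26847 (chr10:128230590-128232790, minus strand) was at 32.4 and 65.9 CPM at 18 months, against 2.20 and 1.80 CPM at 6 weeks, on 6 and 16 UMIs at 18 months, against 5 and 1 UMIs at 6 weeks. The 12-month libraries differed from each other, with 0 CPM in library 1 and 29.96 CPM in library 2. The log2 fold was 4.49 ± 0.60 (edgeR adjusted p = 0.0171). The same gene was at 5.10 and 8.11 CPM in 18-month fibroblasts, against 0.19 and 0.45 CPM in 6-week fibroblasts, and its difference in the endothelium beyond that in fibroblasts was -0.13 ± 0.63 (edgeR adjusted p = 1.0). Without either 6-week library the call was lost, with edgeR adjusted p-values of 0.652 without the male one and 0.788 without the female one.

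Tmem252 (chr19:24674008-24682233, plus strand) encodes a small membrane protein and was listed with the venous genes. It was at 270 and 111 CPM at 18 months, against 998 and 1289 CPM at 6 weeks, on 50 and 27 UMIs at 18 months, against 2264 and 717 UMIs at 6 weeks. The 12-month libraries, at 408 and 774 CPM, lay between the ages, and no library of one age reached another age's range. The log2 fold of -2.57 ± 0.41 did not pass with the rule as written (edgeR adjusted p = 0.0544, and 0.0135 with labelled sex as a second term), and that of -2.65 ± 0.43 after the lineage check did (edgeR adjusted p = 0.00731). Without the 18-month male library the checked fold was -3.76, and without the 18-month female one -2.07. In fibroblasts the gene was at 0 and 0.65 CPM at 18 months, against 3.19 and 0.45 CPM at 6 weeks.

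Maff (chr15:79346621-79359076, plus strand) encodes a small Maf transcription factor that is induced by stress. It was at 16.2 and 57.7 CPM at 18 months, against 113 and 144 CPM at 6 weeks, and the 12-month libraries held 92.2 and 150 CPM. Both 18-month libraries were below the other 4. In the checked sums the 18-month female level was 31.6 CPM and Maff fell by 2.47 ± 0.47 on the log2 scale (edgeR adjusted p = 0.0327). The 18-month male level of 16.2 CPM stands for 3 UMIs in a sum of 185268, and the checked female level also rests on few UMIs. With the rule as written the fold was -1.66 ± 0.45 (edgeR adjusted p = 0.242), and DESeq2 did not call the gene after the check (adjusted p = 0.208). In fibroblasts the 18-month libraries lay on both sides of the 6-week ones, with 133 and 76.2 CPM at 18 months, against 76.3 and 82.0 CPM at 6 weeks.

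**Figure D4:**
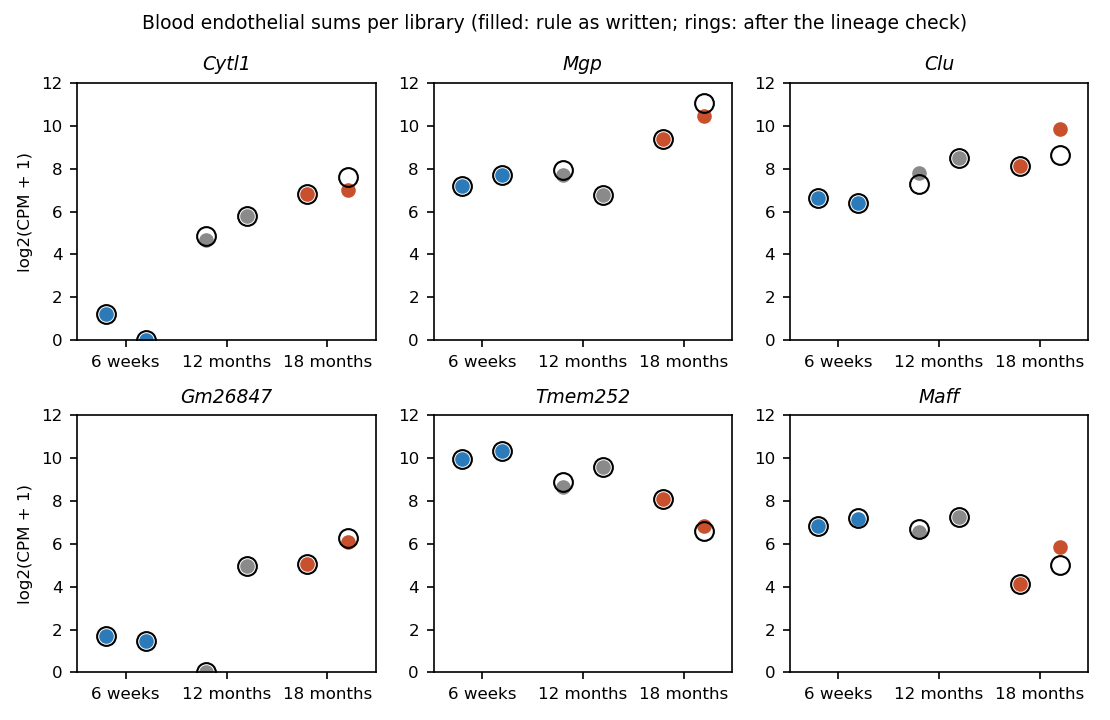
Levels of Cytl1, Mgp, Clu, Gm26847, Tmem252 and Maff as log2(CPM + 1) (vertical axis) in the blood endothelial sum of each library, with 6 weeks, 12 months and 18 months along the horizontal axis and library 1 left of library 2. Filled points follow the rule as written and rings follow the lineage check; the ring lies well below the point for Clu in 18-month library 2, at 392 against 923 CPM.

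Identity and capillary genes gave no calls. Of 25 pan-endothelial genes all were tested, none passed, and the median log2 fold was -0.16 with the rule and 0.02 after the lineage check, beside 0.02 and 0.01 over all genes tested. Their summed level was 10282 and 8469 CPM at 18 months, against 11278 and 11756 CPM at 6 weeks. After the check the 18-month female sum was 12113 CPM. Cldn5, the main tight junction claudin of endothelium, stood at 912 and 354 CPM at 18 months, against 1536 and 1149 CPM at 6 weeks (log2 fold -1.08 ± 0.42, edgeR adjusted p = 0.448). After the check both 18-month libraries were still below both 6-week ones for Cldn5.

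Of 21 capillary genes 17 were tested and none passed. Fabp4, the fatty acid carrier, was the most abundant of them, at 47067 and 23293 CPM at 18 months, against 36312 and 32425 CPM at 6 weeks. Cd36, the fatty acid translocase, was at 3940 and 2094 CPM, against 2368 and 3471 CPM, and Gpihbp1 was at 1555 and 886 CPM, against 1908 and 1404 CPM. In Fabp4 and Cd36 the 18-month libraries lay on both sides of the 6-week ones. After the check the 18-month female levels of Fabp4 and Cd36 were 33277 and 3025 CPM, both between the 6-week libraries. Rgcc, a cell cycle regulator common in capillaries, was lower in both 18-month libraries, at 912 and 387 CPM against 1744 and 1693 CPM, without passing (log2 fold -1.39 ± 0.40, edgeR adjusted p = 0.262). Lpl, the lipoprotein lipase that capillaries present but adipocytes make, was at 372 and 235 CPM at 18 months, against 1106 and 530 CPM at 6 weeks (log2 fold -1.44 ± 0.42, edgeR adjusted p = 0.267). The summed adipocyte markers were at 669 and 161 CPM at 18 months, against 729 and 572 CPM at 6 weeks, and their part in the Lpl values was not tested.

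Arterial and venous genes held Clu and Tmem252, which are described above, and no other call. Gja4, the arterial gap junction connexin 37, was at 16.2 and 28.8 CPM at 18 months, against 78.4 and 86.3 CPM at 6 weeks, without passing (log2 fold -1.79 ± 0.46, edgeR adjusted p = 0.242). Gja1, connexin 43, was at 194 and 70.1 CPM, against 291 and 360 CPM (log2 fold -1.30 ± 0.40, edgeR adjusted p = 0.306). Gja5, connexin 40 of larger arteries, was in too few UMIs to be tested, with 10.8 and 41.2 CPM at 18 months, against 12.3 and 7.19 CPM at 6 weeks. Vwf, the clotting factor stored in endothelial granules, was at 54.0 and 177 CPM, against 85.9 and 73.7 CPM. Ackr1, the chemokine receptor of venules, was at 10.8 and 49.5 CPM, against 28.2 and 35.95 CPM. For Vwf and Ackr1 the 18-month female library was the highest and the 18-month male library the lowest of the 4.

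No flow-response or adhesion gene passed. Klf2, the flow-induced transcription factor, was at 977 and 552 CPM at 18 months, against 1231 and 764 CPM at 6 weeks. Its relative Klf4 was at 1274 and 948 CPM, against 1152 and 1062 CPM, and Nos3, the nitric oxide synthase, at 54.0 and 37.1 CPM, against 69.6 and 53.9 CPM. The ages overlapped for these genes. Icam1, a ligand for leukocyte integrins, was at 178 and 165 CPM, against 223 and 248 CPM, and Vcam1 at 21.6 and 37.1 CPM, against 31.3 and 18.0 CPM. For Icam1 both 18-month libraries were below both 6-week ones. Of 12 adhesion genes tested 3 lay below both 6-week libraries and 1 above, where 20.8% and 18.5% of all genes did. After the check 2 of 11 lay below and 1 above, where 18.8% and 21.0% of all genes did. Their median log2 fold was 0.00 with the rule and 0.14 after the check.

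Among growth factor genes, Pdgfb, the endothelial signal that recruits pericytes, was higher in both 18-month libraries, at 173 and 235 CPM against 114 and 115 CPM, without passing (log2 fold 0.87 ± 0.30, edgeR adjusted p = 0.371). The 12-month libraries, at 131 and 101 CPM, were near the 6-week level. Adm, the dilator peptide adrenomedullin, was at 64.8 and 16.5 CPM at 18 months, against 152 and 95.3 CPM at 6 weeks (log2 fold -1.72 ± 0.51, edgeR adjusted p = 0.277). Ccl2, the monocyte chemokine, had 2 and 0 UMIs at 18 months, against 141 and 55 UMIs at 6 weeks. These are 10.8 and 0 CPM at 18 months, against 62.1 and 98.9 CPM at 6 weeks. Pooled over libraries the level at 18 months was 0.067 times that at 6 weeks, with an exact 95% counting interval of 0.0081 to 0.247. The edgeR adjusted p was 0.141 with the rule and 0.0551 after the check.

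None of the 20 basement membrane genes tested passed. With the rule as written 12 lay below both 6-week libraries and 1 above, where 20.8% of all genes tested lay below and 18.5% above. The lineage check left 8 below and 1 above, beside 18.8% and 21.0% of all genes. The list summed to 8577 and 8692 CPM at 18 months, against 13546 and 12534 CPM at 6 weeks, but the checked 18-month female sum, 12544 CPM, reached the 6-week level. Col4a1 and Col4a2, which form the type IV collagen trimer, stood at 335 and 519 CPM and at 264 and 313 CPM at 18 months, against 984 and 1053 CPM and 502 and 577 CPM at 6 weeks. Their log2 folds were -1.22 ± 0.34 and -0.86 ± 0.31 (edgeR adjusted p = 0.253 and 0.402). Sparc, a collagen-binding matrix protein, was at 2235 and 1904 CPM at 18 months, against 4715 and 3421 CPM at 6 weeks (log2 fold -0.96 ± 0.35, edgeR adjusted p = 0.416). Nid2, which links laminin to collagen, had 1 UMI in each 18-month sum, against 84 and 18 UMIs at 6 weeks, a pooled ratio of 0.129 with an exact 95% counting interval of 0.0155 to 0.480 (edgeR adjusted p = 0.242). The 12-month levels of Col4a1, at 612 and 619 CPM, lay between the ages.

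Markers of mural cells, the smooth muscle cells and pericytes that also make basement membrane, moved with these genes. Of 13 tested, 10 were below both 6-week libraries at 18 months with the rule, beside 20.8% of all genes, and 10 after the lineage check, beside 18.8%. The 15 listed mural markers summed to 1970 and 911 CPM at 18 months, against 2520 and 2628 CPM at 6 weeks, with 1121 and 1615 CPM in 12-month libraries 1 and 2. Pdgfrb, the pericyte receptor for PDGF-B, was at 48.6 and 45.3 CPM at 18 months, against 133 and 153 CPM at 6 weeks (log2 fold -1.57 ± 0.34, edgeR adjusted p = 0.186). Acta2, the smooth muscle actin, was at 48.6 and 24.7 CPM at 18 months, against 116 and 117 CPM at 6 weeks. These levels rested on 9 and 6 UMIs, against 264 and 65 UMIs. Tagln of the same list went the other way, at 221 and 185 CPM, against 180 and 176 CPM. At least as many UMIs of 6 mural genes as of the 9 endothelial genes were found in 9 of 74 and 3 of 41 barcodes at 18 months. At 6 weeks they were found in 70 of 665 and 14 of 151 barcodes, so the shares of the ages overlapped. The part of mural RNA in the basement membrane values was not tested. With every barcode left out that held a UMI of 4 mural or 3 macrophage genes, Cytl1, Mgp, Clu and Tmem252 were among the 17 genes called, with log2 folds of 6.38, 5.68, 2.28 and -2.78. In that fit Maff was not called (log2 fold -1.20, edgeR adjusted p = 0.574), Gm26847 was too low to be tested, and the hemoglobin gene Hbb-bs was called at 6.08.

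No interferon-induced gene passed. Of 29 tested, 17 were below both 6-week libraries and 2 above with the rule, and 11 and 2 of 31 after the lineage check. Among all genes tested 20.8% lay below and 18.5% above with the rule, and 18.8% and 21.0% after the check. Iigp1, an immunity-related GTPase, was at 232 and 218 CPM at 18 months, against 430 and 649 CPM at 6 weeks (log2 fold -1.22 ± 0.33, edgeR adjusted p = 0.242). Isg15, a ubiquitin-like modifier, was at 130 and 107 CPM, against 254 and 230 CPM (log2 fold -1.02 ± 0.31, edgeR adjusted p = 0.298). The list summed to 6159 and 5935 CPM at 18 months, against 8425 and 8606 CPM at 6 weeks, and to 7474 CPM in the checked 18-month female sum. At 12 months it was 7251 and 7297 CPM. B2m, the light chain of MHC class I, was at 1004 and 1282 CPM at 18 months, against 1108 and 1575 CPM at 6 weeks, and 0 of 17 MHC class I genes passed. Macrophage markers, which respond to interferon as well, summed to 329 and 288 CPM at 18 months, against 538 and 525 CPM at 6 weeks. Their defining gene Mrc1 was at 0 in both 18-month sums, against 30.4 and 28.8 CPM at 6 weeks. The part of macrophage RNA in these values was not tested.

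Of 27 immediate early genes 16 lay below both 6-week libraries (20.8% of all genes) and none above (18.5% of all genes), with a median log2 fold of -0.49 and no call. With the lineage check 17 were below (18.8% of all genes), 1 of them called (Maff), and the median was -0.61. Socs3, an inhibitor of cytokine signalling, was at 178 and 132 CPM at 18 months, against 518 and 370 CPM at 6 weeks (log2 fold -1.52 ± 0.35, edgeR adjusted p = 0.214). Cebpb, a transcription factor of acute responses, was at 194 and 227 CPM, against 484 and 514 CPM (log2 fold -1.21 ± 0.31, edgeR adjusted p = 0.242). Its 18-month female level was 18.99 CPM after the check. The best known members differed less, with Fos at 2553 and 2988 CPM, against 2452 and 2991 CPM, and Jun at 2456 and 2011 CPM, against 2660 and 2265 CPM. The check moved the 18-month female levels of Fos and Jun to 1038 and 1411 CPM. The list summed to 20603 and 17235 CPM at 18 months, against 25146 and 25284 CPM at 6 weeks, and to 11284 CPM in the 18-month female library after the check.

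No gene tied to senescence or p53 passed. Cdkn1a, the p53 target that encodes p21, was lower in both 18-month libraries, at 1069 and 713 CPM against 1595 and 2188 CPM, without passing (log2 fold -1.06 ± 0.34, edgeR adjusted p = 0.335). Cdkn2a, which encodes p16, was at 0 in both 18-month sums and in both 6-week sums. With totals of 185268 and 242643 UMIs at 18 months, a count of 0 limits its level in these sums to 16.2 and 12.4 CPM, for counting error only. Of 18 genes of the senescence and p53 list, 8 were below both 6-week libraries and 3 above with the rule as written, beside 20.8% and 18.5% of all genes. The share above was thus near that of all genes.

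No ribosomal protein gene passed, and the counts differed widely between the rule and the lineage check. With the rule as written 48 of 79 were above both 6-week libraries and 0 below, beside 18.5% and 20.8% of all genes, with a median log2 fold of 0.54. After the lineage check 24 were above and 10 below, beside 21.0% and 18.8% of all genes, with a median of 0.14. Their summed level in the 18-month female library was 196977 CPM with the rule and 130166 CPM after the check, beside 161755 CPM in the 18-month male library and 112748 and 134187 CPM at 6 weeks. Rps26 was at 1522 and 1616 CPM at 18 months, against 490 and 852 CPM at 6 weeks (log2 fold 1.27 ± 0.34, edgeR adjusted p = 0.242). Nuclear genes of the respiratory chain moved less with the check, with 25 of 72 above both 6-week libraries and 9 below, then 26 and 12 of 71, beside the same shares of all genes. Ndufb2, a complex I subunit, was at 130 and 120 CPM, against 52.4 and 79.1 CPM (log2 fold 1.00 ± 0.33, edgeR adjusted p = 0.367). Of 18 heat shock genes, 6 were above with the rule, beside 18.5% of all genes, and 2 after the check, beside 21.0%. Hspa1b was at 318 and 111 CPM at 18 months, against 69.2 and 77.3 CPM at 6 weeks, and at 38.0 CPM in the checked 18-month female sum.

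**Figure D5:**
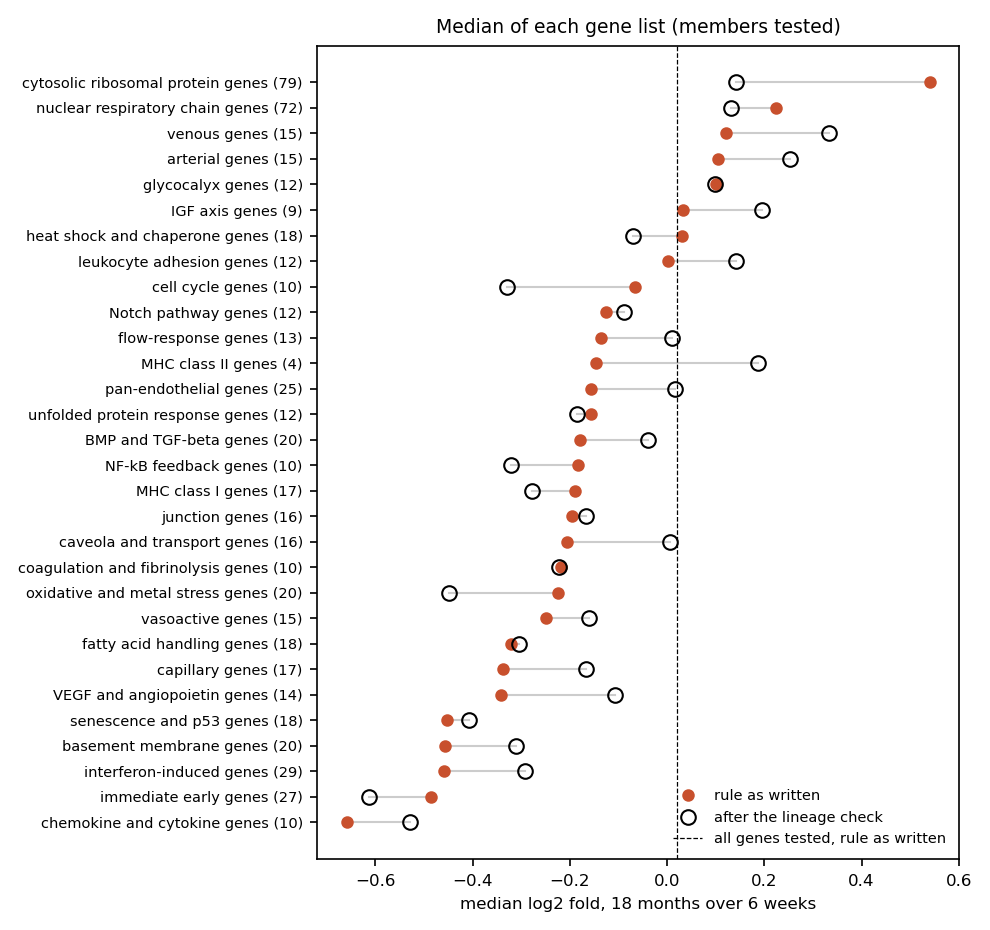
Median log2 fold of 18 months over 6 weeks (horizontal axis) for the 30 gene lists (vertical axis, with the number of members tested), with the rule as written as filled points and after the lineage check as rings. The dashed line is the median of all genes tested with the rule, 0.02; ribosomal protein genes move from 0.54 to 0.14 with the check, and immediate early genes from -0.49 to -0.61.

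To show which differences went beyond those of another cell type of the same libraries, the age difference was set against that of fibroblasts in 1 fit with library as a block. The fibroblasts were 1586 and 427 barcodes at 18 months, against 4523 and 1797 barcodes at 6 weeks. In fibroblasts alone none of 11801 genes passed in either direction with edgeR (0.00%), and 587 had an unadjusted p under 0.05 (4.97%). The difference between the cell types passed for 2 of 11803 genes in the higher direction (0.0169%) and 3 in the lower (0.0254%). At an unadjusted p under 0.05 there were 758 genes (6.42%). With the lineage check 4 of 11573 passed in each direction (0.0346%), and 663 had an unadjusted p under 0.05 (5.73%). Mgp, Ccl2, Ecscr and Cck passed in both fits.

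Mgp was at 19.3 and 90.2 CPM in 18-month fibroblasts, against 157 and 205 CPM in 6-week fibroblasts, so it lay lower where the endothelial sums lay higher (difference of log2 folds 4.43 ± 0.39, edgeR adjusted p = 0.000895). Ccl2 was high in fibroblasts of both ages, at 1772 and 295 CPM at 18 months, against 516 and 910 CPM at 6 weeks (-4.71 ± 0.63, edgeR adjusted p = 0.0191). The endothelial levels of 10.8 and 0 CPM at 18 months thus stood beside abundant fibroblast transcript.

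Ecscr, an endothelial cell surface protein of migrating cells, was at 189 and 185 CPM in 18-month endothelium, against 334 and 234 CPM at 6 weeks. In fibroblasts it was at 53.3 and 57.7 CPM at 18 months, against 13.8 and 14.0 CPM at 6 weeks. With the rule as written the ages thus lay apart in both cell types and in opposite directions (-2.72 ± 0.35, edgeR adjusted p = 0.0173). After the lineage check the 18-month female endothelial level was 234 CPM, nearly level with the 6-week female one at 235 CPM. Cck, a peptide hormone gene, passed at -7.23 ± 0.74 (edgeR adjusted p = 0.00242). Its level was 0 and 90.7 CPM in 18-month endothelium, against 14.5 and 8.99 CPM at 6 weeks, and the lineage check left 1 of the 22 UMIs at 18 months, or 6.33 CPM in the female sum. The 18-month female fibroblasts stood apart at 168 CPM, beside 0.13 CPM in the 18-month male ones and 0.06 and 0.30 CPM in the 6-week ones. Without the 18-month female library 1 gene was called in this comparison.

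The share of blood endothelium among kept barcodes was 2.48% in the 18-month male library (exact 95% interval 1.95% to 3.11%) and 2.89% in the 18-month female one (2.08% to 3.90%). It was 8.08% in the 6-week male library (7.50% to 8.69%) and 3.36% in the 6-week female one (2.85% to 3.93%), and 1.38% and 9.11% in 12-month libraries 1 and 2. The 18-month female and 6-week female intervals overlap, and the 12-month pair spans the whole range. Intervals cover counting error only, and the dissection can set these shares. Without barcodes that held a mural or macrophage UMI the shares were 1.41% and 1.48% at 18 months, against 3.16% and 1.20% at 6 weeks, so that both 18-month libraries were then above the 6-week female one.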

How the data were processed

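The deposited values are raw UMI counts, with 1 matrix of genes by barcodes per library. The submitters' processing notes name Cell Ranger 3.0.2, the mm10 build and Seurat, the last with no version. Libraries held 9616652 to 28921825 UMIs. The 31053 gene IDs were summed to 31017 symbols; 30934 IDs were found in GENCODE M21 (GRCm38), which gave coordinates. The limits on kept barcodes are those in the results, and doublets were left in (leaving out those marked by Scrublet in scanpy 1.11.5 was an alternative). Libraries shared 63 kept barcodes over all pairs, none of them endothelial. Of the endothelial barcodes, 10 and 2 at 18 months had exactly 2 Pecam1 and Cdh5 UMIs, against 113 and 15 at 6 weeks, and 8 and 11, against 125 and 43, missed the rule with 1.

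UMIs of blood endothelium were summed per library and compared with edgeR 4.0.16 in R 4.3.3 (TMM, filterByExpr, quasi-likelihood F test, 2 sums a side, Benjamini-Hochberg adjustment over all genes tested). The SE is the log2 fold divided by the square root of F. Sums and intervals used scipy 1.17.1, pandas 2.3.3 and numpy 2.4.6 under Python 3.11.15, plots used matplotlib 3.10.9, and DESeq2 1.42.0 was an alternative. Further alternatives changed the scaling, the filters, the cell rule and the libraries fitted. The fit was tested on simulated data.

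Members, gene lists and tests were chosen with earlier results of these data known. Named genes were up to 12 calls per direction of at least 30 CPM with both 18-month libraries beyond both 6-week ones, or the 3 of smallest p where fewer than 3 genes were called, up to 2 members per list by smallest p, fixed endothelial genes, and up to 6 calls per direction beyond fibroblasts. Gm26847 is a predicted gene outside this rule. Cck, Clu and Maff, and all genes called after the lineage check, were named after their values were seen. Some genes called are not reported here. Of 42 lists, 30 were biological and 12 marked other cell types.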

Additional observations from a re-analysis of the deposited data

Results flagged for a closer look

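In 2 of 54 genes checked, the labelled male and the labelled female libraries moved opposite ways between 18 months and 6 weeks, with the exact 95% counting intervals of each pair apart, with the rule as written and after the lineage check. The difference between the pairs was not tested, since each pair is 1 library a side. Cd36 was at 3940 CPM (3660 to 4237) in the 18-month male sum, against 2368 CPM (2305 to 2432) in the 6-week male sum, a log2 ratio of 0.73. In the female libraries it was at 2094 CPM (1915 to 2284) at 18 months, against 3471 CPM (3318 to 3629) at 6 weeks, a log2 ratio of -0.73. Mt1, a metallothionein that is induced by metals and stress, was at 1797 CPM (1610 to 2001) in the 18-month male sum, against 1147 CPM (1103 to 1192) in the 6-week male sum, a log2 ratio of 0.65. In the female libraries it was at 725 CPM (622 to 841) at 18 months, against 3493 CPM (3339 to 3651) at 6 weeks, a log2 ratio of -2.27. After the lineage check the log2 ratios in the female libraries were -0.21 for Cd36, at 3025 CPM (2760 to 3309) at 18 months, against 3488 CPM (3334 to 3647) at 6 weeks, and -2.71 for Mt1, at 538 CPM at 18 months, against 3508 CPM at 6 weeks. With 2 libraries per age, single libraries could not be checked as outliers.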

How the results depend on the processing

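Over 33 alternatives, the 26 genes followed kept the sign of their log2 fold in each of the 837 fits in which they were tested. These genes were chosen with results of these data known, and the alternatives reuse the same libraries, so a kept sign is no independent support. Cytl1 passed in 32 of 33 and missed only with sums thinned to the smallest total (log2 fold 5.04, edgeR adjusted p = 0.103). The lineage checks and their variants, the thinned cells, the fit without the deepest cells and the robust prior were chosen after seeing the data. The number of calls moved more. Against 2 with the rule as written it was 0 with sums thinned to the smallest total (292 genes at an unadjusted p under 0.05), 1 with at least 10 UMIs in 2 sums or with all 6 libraries, 4 with upper-quartile factors, a robust prior or Scrublet doublets left out, 5 with labelled sex as a second term, with cells thinned to 2000 UMIs or without the deepest cell of each library, 6 after the lineage check with edgeR or DESeq2, 7 with DESeq2, 8 after the check with RLE factors, 9 with at most 5% mitochondrial UMIs, 10 without Col1a2 and Dcn UMIs, 13 after the check with sex, 17 with the stricter check or without mural or macrophage UMIs, and 187 without a filter on low counts. Leaving out 1 library gave 51 to 290 calls with the rule and, after the check, 134 and 54 without the 18-month male or female library and 15 and 24 without the 6-week male or female one, with the lone sample assumed to vary like the other group. With all 6 libraries Gm26847 was lost (edgeR adjusted p = 0.253), and after the check Gm26847, Clu (both 0.150) and Maff (0.0804). The 5 calls beyond fibroblasts became 8 after the check, 9 with RLE factors, 29 with all 6 libraries, 43 without Col1a2 and Dcn UMIs, 113 without a filter, and 1 to 97 without 1 library. Shares moved past their interval to 1.73% (18-month male) and 9.05% (6-week male) with at least 1000 genes, to 7.49% (6-week male) and 2.69% (6-week female) with at most 5% mitochondrial UMIs, and to 6.71% (6-week male) and 0.990% (12-month library 1) with at least 3 Pecam1 and Cdh5 UMIs. Without Col1a2 and Dcn UMIs the 6-week male share was 5.66%, and without mural or macrophage UMIs that of 12-month library 2 was 4.204%. List medians ranged from -1.21 to -0.36 for immediate early genes, -0.66 to -0.15 for interferon-induced genes, -0.55 to -0.13 for basement membrane genes and -0.09 to 0.66 for ribosomal protein genes. The cause of these shifts was not tested. The labels give no replicate numbers, and the fit with labelled sex as a second term, which pairs the libraries by sex, is the nearest to a replicate block. The 74 and 41 barcodes at 18 months limit the precision of every value here.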

Other observations

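With a stricter lineage check, which also asked for more UMIs of the endothelial genes than of macrophage and of mural genes, 17 genes were called, among them all 6 of the lineage check. The 11 further genes were seen after the fact, and 3 of them are given here. Rgs2, an inhibitor of G protein signalling, was at 12.9 and 19.9 CPM at 18 months, against 101 and 103 CPM at 6 weeks (log2 fold -2.71 ± 0.54, edgeR adjusted p = 0.0238). Apold1, an endothelial gene of early responses, was at 425 and 377 CPM, against 993 and 1623 CPM (-1.75 ± 0.36, edgeR adjusted p = 0.0259). Akap12, a scaffold protein, was at 290 and 146 CPM, against 584 and 1071 CPM (-1.96 ± 0.40, edgeR adjusted p = 0.0259). In these genes both 18-month libraries were below both 6-week ones, and the 12-month values of Apold1, 710 and 716 CPM, lay between.

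Hemoglobin and other erythrocyte genes summed to 248 and 4101 CPM at 18 months, against 239 and 1380 CPM at 6 weeks, in sums that passed red cell lysis. The 18-month female library was the highest and the 18-month male one close to the lowest. The lymphatic gene Ccl21a had no UMI in any of the 6 sums. Lyve1 had 0 and 0 UMIs at 18 months, against 28 and 7 UMIs, or 12.3 and 12.6 CPM, at 6 weeks. A count of 0 limits the 18-month levels only to 16.2 and 12.4 CPM, so no age difference can be read from these counts.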
